A study of Mus musculus with 22 samples.

Results

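The genes described are 34 mouse oxygenases that use iron and 2-oxoglutarate to act on histones, nucleic acids or related proteins, chosen by symbol as members of the JmjC, TET and ALKBH families. All 34 were present among the 55401 genes of the hepatocyte data and among the 55573 genes of the stellate cell data. Transcript levels came from cultured primary liver cells of wild type C57BL/6 mice on chow diet. Hepatocytes, the parenchymal cells of the liver, received 100 uM deferoxamine (DFO), a chelator that withdraws iron from cells (6 libraries), and were compared with placebo hepatocytes (control, 6 libraries). Hepatic stellate cells, pericytes that store vitamin A and lay down collagen in fibrosis, received 100 uM iron (5 libraries) and were compared with placebo stellate cells (control, 5 libraries). Cells of all groups were plated for 24 h and then treated for 24 h, hepatocytes in Williams Medium E and stellate cells in DMEM, both with serum. The labels state neither the form of the added iron nor the age and sex of the mice. The protocol text calls the replicates biological, and nothing says whether libraries of 1 group came from separate animals or separate dishes, so p-values cover only the spread among these libraries, and that spread may be technical.

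These enzymes hold a ferrous iron at the active site and split molecular oxygen while turning 2-oxoglutarate into succinate. JmjC histone demethylases hydroxylate methyl groups on histone lysines, which then leave as formaldehyde, and so take off marks such as H3K9, H3K36, H3K4 and H3K27 methylation. TET enzymes oxidise 5-methylcytosine in DNA, and ALKBH proteins remove alkyl groups from DNA or RNA, among them FTO and ALKBH5, which remove N6-methyladenosine (m6A) from messenger RNA. Hypoxia-inducible factor (HIF) accumulates when its own iron-dependent prolyl hydroxylases lack oxygen or iron, and Kdm3a and Kdm4b are known HIF target genes.

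Total counts ranged from 19342490 to 41839154 in hepatocyte libraries and from 12058226 to 32067635 in stellate cell libraries. The labelled cell types were checked against marker genes in CPM, counts scaled to a common library total after TMM normalisation. The 8 hepatocyte markers summed to 9526 to 11619 CPM in DFO hepatocytes and 8124 to 9870 CPM in control hepatocytes, of which Alb made up 8639 to 10564 CPM with DFO and 6785 to 8333 CPM in controls. By gene, 3 of the 8 were higher with DFO and 5 lower, with a median log2 fold change of -0.379; Hnf4a stood at -0.92. The 14 macrophage and Kupffer cell markers summed to 275 to 368 CPM with DFO, against 184 to 214 CPM in controls, and 10 of the 13 tested were higher. Endothelial markers summed to 36.7 to 50.3 CPM with DFO, against 30.6 to 36.5 CPM in controls, stellate cell markers to 91.3 to 148 CPM, against 81.1 to 98.5 CPM, and cholangiocyte markers to 1907 to 2118 CPM, against 2144 to 2620 CPM. By gene, 3 of 10 endothelial markers were higher and 0 lower, and 3 of 7 stellate cell markers tested were higher and 1 lower. Of 4 cholangiocyte markers tested, Sox9 was higher (log2 fold change 1.34), Krt7 (-2.70) and Spp1 (-0.32) were lower, and Krt19 (0.08) was not called. In stellate cell cultures, the 10 stellate cell markers summed to 8764 to 11867 CPM with iron and 16007 to 20881 CPM in controls. Their macrophage markers summed to 2181 to 3490 CPM with iron, against 196 to 272 CPM in controls, and all 13 tested were higher. Endothelial markers summed to 229 to 488 CPM with iron, against 87.8 to 165 CPM in controls, cholangiocyte markers to 227 to 822 CPM, against 111 to 164 CPM, and hepatocyte markers to 106 to 263 CPM, against 181 to 320 CPM. By gene over these 10 libraries, 5 of 10 stellate cell markers and 1 of 8 hepatocyte markers were lower and 0 higher. Of 10 endothelial and 4 cholangiocyte markers tested, 5 and 2 were higher and 0 lower, while the cholangiocyte marker Sox9 stood at -0.64 and was not called. Lymphocyte markers were at or below 1.07 CPM in sum in every library, and Cd3e and Cd3d were at 0 in all stellate cell libraries. In these bulk libraries, fewer cells of a type and less RNA per cell cannot be told apart, and the part of other cells in the results below was not tested.

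The first comparison asked how hepatocyte transcripts of these enzymes differ when iron is chelated. Kdm3a, Kdm4b, Alkbh5 and Jmjd6 had the largest increases with DFO among the members, at 4.74-fold, 2.43-fold, 2.29-fold and 1.99-fold. Smaller increases were called for 8 other members, and 8 members fell, none by more than 2-fold. The m6A demethylases moved apart, Alkbh5 upward and Fto downward.

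Of the 34 members, 32 passed the filter on low counts, and Kdm4d and Tet1 did not. Among the 32, 12 were higher with DFO (37.5%), where 27.9% of the 15660 genes tested were higher (edgeR quasi-likelihood test, Benjamini-Hochberg adjusted p under 0.05). Another 8 were lower (25.0%), where 30.1% of all genes tested were lower. In either direction 62.5% of the members were called, near the 58.0% of all genes. More than 2-fold increases were called for 3 members (9.38%), against 4.62% of all genes, and more than 2-fold decreases for 0 members, against 3.63%. The median log2 fold change of the members was 0.14, and that of all genes was -0.00121. The DFO and control libraries did not overlap for 10 members (31.2%), where they did not overlap for 35.9% of all genes.

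**Figure D1:**
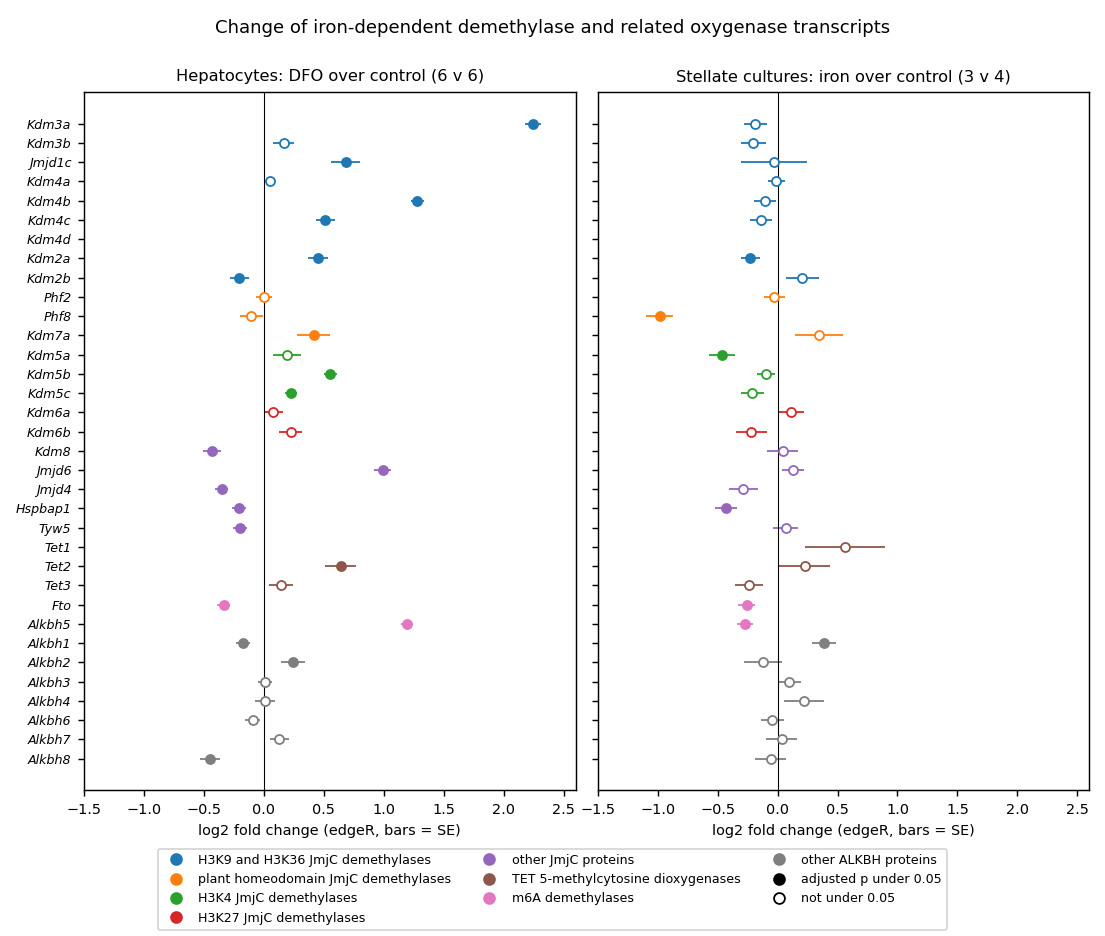
Log2 fold change (horizontal axis, edgeR, bars are the standard error) of each oxygenase gene (rows, coloured by role) in DFO over control hepatocytes on the left and in iron over control stellate cell cultures on the right (3 iron and 4 control libraries). Filled points had an adjusted p under 0.05, and genes without a point were not tested. Kdm3a lies farthest to the right in hepatocytes at 2.24, and Phf8 farthest to the left in stellate cultures at -0.98.

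Among the demethylases of H3K9 and H3K36, 5 of 8 tested members rose and 1 fell. Kdm3a, which removes mono- and dimethylation from H3K9 (chromosome 6, 71588972 to 71632990, mm10, minus strand), had a lowest, median and highest level of 187, 237 and 248 CPM in DFO hepatocytes. In control hepatocytes it had 46.3, 47.7 and 50.6 CPM. Every DFO library stood above every control library. The log2 fold change was 2.24 ± 0.06 (SE; adjusted p = 2.62e-14), and per kilobase the level was 27.3 ± 2.89 FPKM with DFO and 5.92 ± 0.25 FPKM in controls (SD, n = 6 each). Kdm4b, a demethylase of trimethylated H3K9 and H3K36 (chromosome 17, 56326062 to 56402870, plus strand), had 59.1, 64.9 and 69.5 CPM with DFO. In controls Kdm4b had 24.9, 26.8 and 28.2 CPM. The groups were again separate, with a log2 fold change of 1.28 ± 0.05 (adjusted p = 2.63e-12).

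The other genes of this group moved less. Jmjd1c, the paralogue of Kdm3a, averaged 205 ± 45.1 CPM with DFO and 128 ± 13.5 CPM in controls, a log2 fold change of 0.68 ± 0.12 (adjusted p = 1.14e-04). Kdm4c, a further H3K9 and H3K36 demethylase, had a log2 fold change of 0.51 ± 0.08 (adjusted p = 3.53e-05), and its groups did not overlap. Kdm2a, an H3K36 demethylase that binds unmethylated CpG islands, had a log2 fold change of 0.45 ± 0.08 (adjusted p = 1.43e-04). Its paralogue Kdm2b went the other way, with a log2 fold change of -0.20 ± 0.08 (adjusted p = 0.0359). The Kdm2b call was lost without control 2, 3, 4 or 6 or without DFO 2, 4 or 5, where adjusted p was 0.05 to 0.0744. Kdm4a, abundant in these cells, had 91.5 ± 6.23 CPM with DFO and 88.2 ± 2.89 CPM in controls (log2 fold change 0.05, adjusted p = 0.381). Kdm3b, the other paralogue of Kdm3a, had a log2 fold change of 0.16 (adjusted p = 0.116), and 24.6% of its exonic bases overlap a non-coding gene on the opposite strand. The testis-enriched Kdm4d had 4 to 12 counts per DFO library and 4 to 21 per control library.

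Promoter sequence is shown for 4 members that moved by different amounts or directions, so that the letters the HIF complex is known to bind can be looked for. The windows run from 250 bases before to 50 bases after a RefSeq transcript start (GRCm38.p6), on the gene's strand. Capitals mark ACGTG or GCGTG on either strand, the 2 forms of the HIF motif core, so an ACGTG on the other strand reads CACGT, and overlapping matches are counted separately. The Kdm3a window lies at chr6:71632868-71633167 (minus strand), and its GCGTG begins at position -27 relative to the start.
Kdm3a promoter: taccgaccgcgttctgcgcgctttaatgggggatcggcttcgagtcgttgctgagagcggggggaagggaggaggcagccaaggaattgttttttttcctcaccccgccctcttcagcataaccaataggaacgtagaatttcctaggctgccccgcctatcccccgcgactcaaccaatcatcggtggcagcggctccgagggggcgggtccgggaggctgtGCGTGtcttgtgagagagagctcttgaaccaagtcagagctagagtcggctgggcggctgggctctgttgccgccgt
The Alkbh5 window lies at chr11:60537433-60537732 (plus strand), with a GCGTG at position -62.
Alkbh5 promoter: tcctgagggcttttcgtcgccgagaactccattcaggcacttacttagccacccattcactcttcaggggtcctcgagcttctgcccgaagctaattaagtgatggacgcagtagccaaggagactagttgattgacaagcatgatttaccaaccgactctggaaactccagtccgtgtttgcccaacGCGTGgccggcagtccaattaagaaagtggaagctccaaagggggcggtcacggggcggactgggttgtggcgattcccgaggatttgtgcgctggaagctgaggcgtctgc
The Jmjd6 window lies at chr11:116843400-116843699 (minus strand), with an ACGTG on the other strand at -228 and a GCGTG at -11.
Jmjd6 promoter: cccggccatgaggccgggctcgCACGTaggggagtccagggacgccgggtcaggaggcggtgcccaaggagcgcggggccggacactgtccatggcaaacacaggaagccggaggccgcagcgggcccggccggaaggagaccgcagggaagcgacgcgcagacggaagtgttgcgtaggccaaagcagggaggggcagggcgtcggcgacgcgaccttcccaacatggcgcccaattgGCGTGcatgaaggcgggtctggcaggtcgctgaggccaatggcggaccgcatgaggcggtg
The Fto window lies at chr8:91313275-91313574 (plus strand) and holds neither form.
Fto promoter: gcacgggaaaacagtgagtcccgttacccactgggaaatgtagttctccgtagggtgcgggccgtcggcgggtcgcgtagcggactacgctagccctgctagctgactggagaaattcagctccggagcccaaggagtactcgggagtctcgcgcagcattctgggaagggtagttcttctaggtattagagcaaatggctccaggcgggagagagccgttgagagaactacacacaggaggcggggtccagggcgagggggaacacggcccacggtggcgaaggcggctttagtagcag
A window was found for 29 of the 34 members, 38 windows in all, some of which overlap where a gene has several starts. Kdm2a, Kdm3b, Kdm4b, Kdm5a and Kdm6b had no window. Either form occurred in 21 of the 38 windows (55.3%) and in 43.8% of all 32851 windows. GCGTG occurred in 19 of the 38 windows, against 32.4% of all windows, and ACGTG in 11 (28.9%), against 19.6%. Counted by gene, 16 of the 29 members held GCGTG and 11 held ACGTG, and the share by gene was not computed for all genes. The members with a match include both genes that rose and genes that fell or were not called: Hspbap1 and Jmjd4, which fell, held 7 and 3 matches, while the other 2 Kdm3a windows held 0. A match describes these letters only and was not read as a binding site.

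The plant homeodomain demethylases read methylated H3K4 with a PHD finger and act on H3K9 and other lysines. Kdm7a had 31.8 ± 7.73 CPM with DFO and 23.8 ± 3.35 CPM in controls, a log2 fold change of 0.42 ± 0.14 (adjusted p = 0.0153), which limma on log2(FPKM + 1) did not call (adjusted p = 0.0648). Phf2 had a log2 fold change of -0.0029 (adjusted p = 0.974) and Phf8 of -0.10 (adjusted p = 0.361). Of the H3K4 demethylases, Kdm5b rose to 151 ± 12.6 CPM with DFO, against 103 ± 2.39 CPM in controls, with no overlap (log2 fold change 0.55 ± 0.05, adjusted p = 1.29e-07). The X-linked Kdm5c, the member with the highest level per kilobase in control hepatocytes, rose less, with a log2 fold change of 0.23 ± 0.05 (adjusted p = 0.00131). Kdm5a, their paralogue, had a log2 fold change of 0.19 (adjusted p = 0.176). The H3K27 demethylases Kdm6a and Kdm6b had log2 fold changes of 0.08 (adjusted p = 0.396) and 0.22 (adjusted p = 0.0564).

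In the remaining JmjC proteins, which mostly hydroxylate proteins or RNA, 1 of 5 rose and 4 fell. Jmjd6, a lysyl hydroxylase of splicing factors (chromosome 11, 116837432 to 116843449, minus strand), had 96.7, 105 and 131 CPM as its lowest, median and highest level with DFO. In controls Jmjd6 had 48.9, 55.4 and 56.6 CPM. The groups were separate, and the log2 fold change was 0.99 ± 0.07 (adjusted p = 1.72e-09). Kdm8, a JmjC arginyl hydroxylase (chromosome 7, 125444676 to 125462269, plus strand), had 4.35, 4.88 and 5.30 CPM with DFO, against 6.15, 6.53 and 7.37 CPM in controls. All 6 DFO libraries were below all 6 control libraries (log2 fold change -0.43 ± 0.07, adjusted p = 8.78e-05). Jmjd4, which hydroxylates the translation termination factor eRF1, fell to 14.0 ± 0.80 CPM with DFO, against 17.9 ± 0.51 CPM in controls, also without overlap (log2 fold change -0.35 ± 0.05, adjusted p = 2.02e-05). Hspbap1, a partner of a small heat shock protein, had a log2 fold change of -0.21 ± 0.06 (adjusted p = 0.00632). Tyw5, which hydroxylates the tRNA base wybutosine, had a log2 fold change of -0.20 ± 0.06 (adjusted p = 0.00711). For Tyw5, 25.6% of the exonic bases overlap Maip1 on the opposite strand, which itself had a log2 fold change of -0.24. With the strand setting of the counting not given, reads of these 2 genes in the shared bases cannot be told apart.

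**Figure D2:**
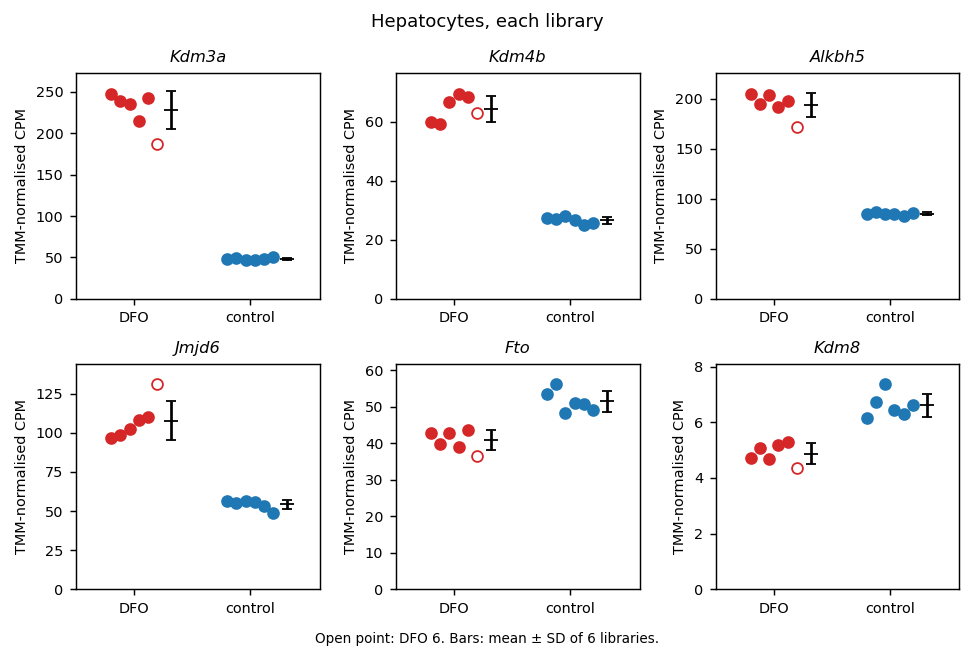
TMM-normalised CPM (vertical axis, from 0) of 6 oxygenase genes in each DFO and control hepatocyte library, with the mean and SD of 6 libraries as a bar. The open point is library DFO 6. Kdm3a, Kdm4b, Alkbh5 and Jmjd6 lie higher in every DFO library, and Fto and Kdm8 lower.

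Of the TET genes, Tet1 was the scarcest. It had 1 to 12 counts per DFO library and 2 to 8 per control library and was not tested. Tet2 had 9.01, 13.5 and 16.3 CPM as its lowest, median and highest level with DFO, against 7.11, 8.63 and 9.85 CPM in controls. The groups overlapped, since the lowest DFO library stood below the highest control library, and the log2 fold change was 0.64 ± 0.13 (adjusted p = 4.2e-04). Tet3 averaged 35.7 ± 6.18 CPM with DFO and 32.2 ± 3.26 CPM in controls (log2 fold change 0.14, adjusted p = 0.233).

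The 2 demethylases of m6A changed in opposite directions. Alkbh5 (chromosome 11, 60536381 to 60558512, plus strand) had 171, 196 and 205 CPM with DFO, against 82.4, 85.0 and 86.5 CPM in controls. The groups were separate (log2 fold change 1.19 ± 0.05, adjusted p = 1.47e-12). Fto (chromosome 8, 91313525 to 91668439, plus strand) had 36.6, 41.2 and 43.6 CPM with DFO, against 48.3, 50.8 and 56.2 CPM in controls. Here too the groups were separate, with DFO below control (log2 fold change -0.34 ± 0.05, adjusted p = 4.72e-05). Per kilobase Alkbh5 stood at 31.9 ± 2.19 FPKM and Fto at 3.09 ± 0.22 FPKM with DFO, against 14.3 ± 0.26 and 4.00 ± 0.18 FPKM in controls (SD, n = 6 each).

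Among the other ALKBH genes, 1 of 7 rose and 2 fell. Alkbh8, which hydroxylates and methylates the wobble uridine of tRNA, fell to 15.0 ± 2.19 CPM with DFO, against 20.3 ± 1.52 CPM in controls, with no overlap (log2 fold change -0.45 ± 0.08, adjusted p = 2.34e-04). Alkbh1, a demethylase of tRNA and DNA, had a log2 fold change of -0.17 ± 0.06 (adjusted p = 0.0197), which was lost without control 4 (adjusted p = 0.0526). Alkbh2, which repairs alkylated bases in double-stranded DNA, had a log2 fold change of 0.25 ± 0.10 (adjusted p = 0.0418). That call was lost without control 1, 3, 5 or 6 or without DFO 3, 4, 5 or 6 (adjusted p 0.0507 to 0.103) and with limma on FPKM (adjusted p 0.103 and 0.104). Of the Alkbh2 exonic bases, 29.5% overlap Usp30 on the opposite strand, whose log2 fold change was 0.27. With the strand setting not given, reads in these shared bases cannot be told apart. Alkbh3, Alkbh4, Alkbh6 and Alkbh7 had log2 fold changes of -0.09 to 0.13 and did not pass the test. Alkbh6 was called lower by limma on log2(FPKM + 1) (-0.12, adjusted p = 0.0426) and on log2(FPKM + 0.1) (-0.14, adjusted p = 0.0424). Those 2 fits called 4876 and 4880 of 13582 genes lower.

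Library DFO 6 differed from the other DFO libraries in a way that touched long genes. It had the lowest level of the 6 DFO libraries for 22 of the 32 members (68.8%), against 32.1% of all genes, and the median exonic length of the members was 7.11 kb, against 3.87 kb of all genes. Averaged over counts, exonic length was 4.73 kb in DFO 6, 5.02 to 5.36 kb in the other DFO libraries and 5.04 to 5.30 kb in controls. Of the 17 members of 7 kb or longer, 16 were lower in DFO 6 than the median of the other DFO libraries, and of the 15 shorter members 8 were. The matching shares of all genes by length were not computed, so these counts describe the library and are not read as a trait of the members. Across the 32 members the offset of DFO 6 had a Spearman rho of -0.725 with exonic length, a description over genes that share 1 library. Without DFO 6, 4 more members passed the test as higher: Kdm3b (0.24, adjusted p = 5.42e-04), Kdm5a (0.28, adjusted p = 0.0145), Kdm6b (0.30, adjusted p = 3.2e-04) and Tet3 (0.22, adjusted p = 0.0118, all log2 fold changes). Of the 15789 genes tested without DFO 6, 4665 were higher and 5037 lower. Kdm6b also passed without control 6 (0.26, adjusted p = 0.0392) and, with all 12 libraries, with DESeq2 (0.24, adjusted p = 0.0354). With all 12, voom quality weights and library mean exonic length as a covariate each called Kdm3b, Kdm5a, Kdm6b and Tet3 higher (adjusted p 1.29e-05 to 0.0181). The covariate also called Kdm6a higher (adjusted p = 0.00639). Of all 15660 genes, voom called 4802 higher and the covariate 5000. Leaving out any 1 of the 12 libraries ended no call other than those of Kdm2b, Alkbh1 and Alkbh2.

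**Figure D3:**
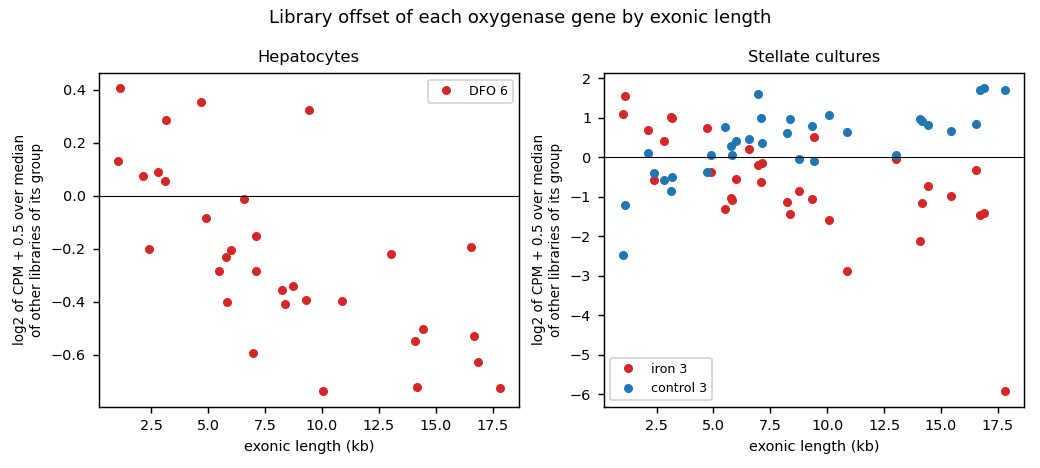
Offset of single libraries (vertical axis, log2 of CPM + 0.5 over the median of the other libraries of the group) by exonic length of each oxygenase gene (horizontal axis, kb), for DFO 6 in hepatocytes on the left and for iron 3 and control 3 in stellate cultures on the right. Members of 7 kb or longer lie mostly below 0 in DFO 6 and iron 3, with medians of -0.398 and -1.09, and mostly above 0 in control 3, with a median of 0.825.

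Genes that write the same marks or supply the cofactor were examined beside the oxygenases. Their counts were read beside the 27.9% of all genes tested that were higher with DFO and the 30.1% that were lower. The lists are short, and their counts are not read as a trait of a list. Of 25 genes of histone lysine methyltransferase complexes, which include the non-catalytic subunits Eed and Suz12, 7 were higher and 8 lower with DFO (median log2 fold change -0.00835). Ezh1, an H3K27 methyltransferase, stood at 0.60 ± 0.05 (adjusted p = 8.37e-09), the H3K9 methyltransferases Suv39h1 and Suv39h2 at -0.69 ± 0.07 (adjusted p = 3.18e-07) and -0.68 ± 0.09 (adjusted p = 4.24e-06), and the H3K36 methyltransferase Nsd1 at -0.77 ± 0.11 (adjusted p = 8.3e-06). Eed (0.32) and Suz12 (0.41) were among the 7 higher. Of 6 genes for DNA methylation and its repair, 1 was higher, the de novo methyltransferase Dnmt3a (0.33 ± 0.08, adjusted p = 0.00147), and 3 were lower. These were Uhrf1, which guides maintenance methylation (-0.89 ± 0.07, adjusted p = 1.37e-08), the maintenance methyltransferase Dnmt1 (-0.61 ± 0.07, adjusted p = 6.17e-07) and the glycosylase Mbd4 (-0.54 ± 0.13, adjusted p = 0.00181). Of 13 m6A writers and readers, Rbm15, Ythdc1, Mettl14 and Cbll1 were higher (log2 fold changes 0.43, 0.41, 0.25 and 0.24) and Rbm15b was lower (-0.14). Of 14 genes for enzymes of 2-oxoglutarate, succinate, 2-hydroxyglutarate and the following fumarate step (Fh1), D2hgdh was higher (0.15 ± 0.06, adjusted p = 0.0421) and 9 were lower, and the median log2 fold change was -0.208. Idh1, the cytosolic enzyme that makes 2-oxoglutarate, stood at -0.53 ± 0.04 (adjusted p = 6.73e-09) and the mitochondrial Idh3a and Idh2 at -0.60 ± 0.05 (adjusted p = 4.68e-08) and -0.53 ± 0.05 (adjusted p = 3.05e-07), and Dlst, a subunit of the 2-oxoglutarate dehydrogenase complex, at -0.36 (adjusted p = 1.11e-06). The flavin-dependent demethylase Kdm1b fell (-0.21 ± 0.07, adjusted p = 0.0113) and Kdm1a was not called (0.08, adjusted p = 0.0837). Tfrc, Bnip3, Egln3, Ankrd37, Pdk1 and Ndrg1, known to answer iron depletion or HIF, all rose, with a median log2 fold change of 3.63.

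The next comparison asked how the same transcripts differ in stellate cell cultures given iron. With all 10 libraries, 1 of the 33 tested members passed the test: Phf8, an X-linked demethylase of H3K9 and H4K20, was lower with iron. Without 3 libraries that stand apart, Phf8 had a fold of 0.506 (iron over control), 5 further members fell with folds of 0.726 to 0.855, and 1 rose, at 1.31-fold. Kdm3a, Kdm4b and Jmjd6, the strongest JmjC increases in DFO hepatocytes, did not pass the test in either set of libraries, with larger errors over all 10.

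The 3 libraries, control 3, iron 3 and iron 5, differed in make-up from the rest. Their deposited FPKM values summed to 482999.6, 424252.9 and 503332.6, and their counts came from genes with a mean exonic length of 7.23, 4.27 and 4.02 kb, against 5.16 to 5.69 kb in the other 7. Control 3 was the highest control for 23 of the 33 tested members, and iron 3 or iron 5 was the lowest iron library for 25. Iron 5 had no count for 10 tested members, Kdm3a and Tet2 among them, where 3 counts would be 0.249 CPM. Of the 18 tested members of 7 kb or longer, 16 were higher in control 3, 17 lower in iron 3 and 16 lower in iron 5 than the median of the other libraries of their group. The matching shares of all genes were not computed, so these counts describe the libraries and are not read as a trait of the members. Over all genes, iron 5 had counts for 12535, against 19893 to 24278 in iron 1 to 4. Values are therefore given with all 10 libraries and with the 7 that remain (3 iron and 4 control).

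With 10 libraries, 0 members were higher and 1 was lower, where 4.05% of the 15502 genes tested were higher and 3.37% lower. At an unadjusted p under 0.05 there were 9 of 33 members (27.3%), against 27.7% of all genes. DESeq2 called 0 members higher and 4 lower, where it called 1615 of the 15502 genes tested higher and 1280 lower. The groups did not overlap for 7 members (21.2%), where they did not overlap for 21.9% of all genes. The members' median log2 fold change was -0.507 and that of all genes -0.0608. Phf8 (chromosome X, 151520672 to 151633859, plus strand) had 30.2, 34.9, 14.3, 23.7 and 7.14 CPM in iron 1 to 5 and 58.0, 60.1, 102, 60.8 and 56.6 CPM in control 1 to 5. Every iron library was below every control library, and control 3 was the highest and iron 5 the lowest. The log2 fold change was -1.61 ± 0.39 (adjusted p = 0.0297). The call was lost without any 1 of the 5 controls, without iron 3 or without iron 4, with log2 fold changes of -1.67 to -1.42 and adjusted p of 0.0565 to 0.0799.

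**Figure D4:**
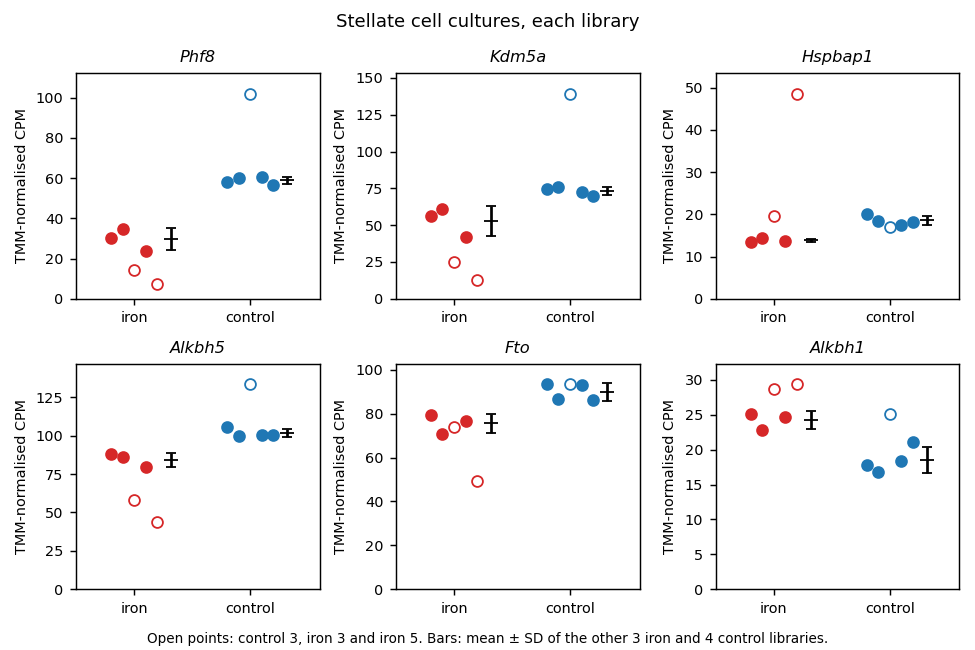
TMM-normalised CPM (vertical axis, from 0) of 6 oxygenase genes in each iron and control stellate cell library. Open points are iron 3, iron 5 and control 3, and bars give the mean and SD of the other 3 iron and 4 control libraries. Phf8 lies below control in all 5 iron libraries, while Hspbap1 is below control in 3 iron libraries and above it in iron 5 at 48.6 CPM.

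With 7 libraries, 1 member was higher and 6 were lower, where 18.3% of the 16287 genes tested were higher and 19.8% lower. In either direction 21.2% of the members were called, against 38.1% of all genes, and the groups did not overlap for 9 members (27.3%), against 43.7%. The median log2 fold change was -0.0572 for the members and 0.0064 for all genes. Phf8 had a log2 fold change of -0.98 ± 0.11 (adjusted p = 1.33e-05), and it stood at 3.39 FPKM with iron and 6.42 FPKM in controls. Leaving out any 1 of the 7 libraries gave log2 fold changes of -1.10 to -0.84, each called.

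Phf8 lies on the X chromosome, and Xist, the RNA of the inactive X, differed between libraries. Xist had 9.25, 0.071, 0, 4.42 and 0 CPM in iron 1 to 5 and 0, 0.567, 1.39, 0.0348 and 0.614 CPM in control 1 to 5. Over the 7 libraries Xist was higher with iron (log2 fold change 4.00 ± 1.04, adjusted p = 0.00827) and the Y-linked Ddx3y lower (-0.30 ± 0.11, adjusted p = 0.0489), while Uty, Kdm5d and Eif2s3y were not called. Phf8 was below the controls in iron 1 and iron 4, where Xist was highest, and in iron 2. The other X-linked members, Kdm5c and Kdm6a, had log2 fold changes of -0.21 (adjusted p = 0.106) and 0.11 (adjusted p = 0.414) over the 7 libraries and of -0.70 (adjusted p = 0.125) and -0.71 (adjusted p = 0.59) over all 10. Macrophage markers were higher in every iron library, as given above, and the part of these markers and of the sex-linked RNAs in the lower Phf8 was not tested.

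Kdm5a, the H3K4 demethylase, had 56.2, 60.9 and 41.7 CPM in iron 1, 2 and 4 and 74.4, 76.1, 72.3 and 69.9 CPM in control 1, 2, 4 and 5 (log2 fold change -0.46 ± 0.11, adjusted p = 0.00425). Hspbap1 had 13.5, 14.3 and 13.7 CPM in these iron libraries and 20.0, 18.4, 17.6 and 18.2 CPM in these controls (log2 fold change -0.43 ± 0.10, adjusted p = 0.0031). Both genes were lower in each of these iron libraries than in any of these controls. Over all 10 libraries Kdm5a had a log2 fold change of -1.14 ± 0.40 (adjusted p = 0.105). For Hspbap1 the direction turned on the libraries left out: with all 10, where iron 5 had 48.6 CPM, the log2 fold change was 0.26 ± 0.36 (adjusted p = 0.661).

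Both m6A demethylases were lower with iron over the 7 libraries. Alkbh5 had 87.9, 85.8 and 79.3 CPM in iron 1, 2 and 4 and 105, 99.6, 100.3 and 101 CPM in control 1, 2, 4 and 5 (log2 fold change -0.27 ± 0.07, adjusted p = 0.00618). Fto had 79.2, 70.8 and 76.6 CPM in these iron libraries and 93.4, 86.7, 93.3 and 86.4 CPM in these controls (log2 fold change -0.26 ± 0.07, adjusted p = 0.0118). Neither gene's groups overlapped. With all 10 libraries the log2 fold changes were -0.60 ± 0.21 for Alkbh5 (adjusted p = 0.107) and -0.37 ± 0.16 for Fto (adjusted p = 0.163). The Fto call was lost without control 1, control 4 or iron 2 (adjusted p 0.0531 to 0.0667).

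Kdm2a, the H3K36 demethylase, had 107, 102 and 86.4 CPM with iron and 116, 112, 115 and 117 CPM in controls (log2 fold change -0.23 ± 0.08, adjusted p = 0.0335). This call was kept without iron 1 and lost without any other of the 7 libraries (adjusted p 0.0586 to 0.0987). Alkbh1, the tRNA and DNA demethylase, was the member that rose, with 25.2, 22.8 and 24.7 CPM with iron and 17.9, 16.7, 18.3 and 21.04 CPM in controls (log2 fold change 0.39 ± 0.10, adjusted p = 0.00701). Every one of these iron libraries was above every one of these controls for Alkbh1. With all 10 libraries the log2 fold changes were -0.70 ± 0.26 for Kdm2a (adjusted p = 0.116) and 0.40 ± 0.18 for Alkbh1 (adjusted p = 0.177). Iron 4 had the shortest mean exonic length per count of the 7 libraries, 5.16 kb, and without it Jmjd1c, Kdm2b, Kdm7a, Tet1 and Tet2 were called higher, with log2 fold changes of 0.34, 0.34, 0.62, 0.83 and 0.46. Without iron 1, Kdm5c (-0.29) and Kdm6b (-0.40) were called lower, and without iron 2 Jmjd4 (-0.39) was. Over all genes, the fits without iron 4, 1 and 2 called 3299, 2817 and 2828 higher. They called 3327, 2807 and 2807 lower, of 16756, 16608 and 16722 genes tested.

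The JmjC genes that rose most with DFO were not called in these cultures. Kdm3a had 36.4, 34.4 and 27.5 CPM in iron 1, 2 and 4 and 38.1, 38.0, 36.9 and 36.4 CPM in control 1, 2, 4 and 5. The groups overlapped, and the log2 fold change was -0.19 ± 0.10 (adjusted p = 0.153). Kdm4b had a log2 fold change of -0.11 ± 0.09 (adjusted p = 0.415) and Jmjd6 of 0.13 ± 0.09 (adjusted p = 0.308). With all 10 libraries, where Kdm3a had 15.5 CPM in iron 3, no count in iron 5 and 57.1 CPM in control 3, its log2 fold change was -0.86 ± 0.82 (adjusted p = 0.514). Over the same 10, Kdm4b had -0.08 ± 0.19 (adjusted p = 0.809) and Jmjd6 0.45 ± 0.20 (adjusted p = 0.163). TET genes were not called over the 7 libraries, with log2 fold changes of 0.56 ± 0.33 for Tet1, 0.22 ± 0.21 for Tet2 and -0.24 ± 0.12 for Tet3. Over all 10 these were -0.16 ± 0.76, -0.87 ± 0.84 and -1.34 ± 0.90, again not called. Kdm4d, with 0 to 12 counts per iron library and 1 to 12 per control library, was not tested.

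The lists of writers and cofactor enzymes were read beside the 18.3% of all genes that were higher and 19.8% that were lower over the 7 libraries. Of the 25 genes of histone lysine methyltransferase complexes, 5 were higher with iron and 2 lower. The H3K27 methyltransferase Ezh2 (0.86 ± 0.09, adjusted p = 1.03e-05), Suv39h1 (0.70 ± 0.09, adjusted p = 5.97e-05), Nsd2 (0.45 ± 0.08, adjusted p = 6.69e-04), Suv39h2 (0.69) and the subunit Suz12 (0.42) were higher. Ezh1 (-0.42 ± 0.09, adjusted p = 0.00174) and Kmt2c (-0.51, adjusted p = 0.0486) were lower. Of the 6 DNA methylation and repair genes, Uhrf1 (0.98 ± 0.08, adjusted p = 1.42e-06) and Dnmt1 (0.68 ± 0.07, adjusted p = 8.13e-06) were higher. Of 13 m6A writers and readers 1 was higher, the nuclear reader Ythdc1 (0.19 ± 0.07, adjusted p = 0.0396). Of the 14 genes around 2-oxoglutarate, Idh2 (0.80) and Idh3a (0.39) were higher and Idh1 (-0.65) and Ogdh (-0.30) lower. With all 10 libraries, Suv39h1 (1.00 ± 0.26, adjusted p = 0.0415), Uhrf1 (0.85 ± 0.19, adjusted p = 0.0223) and Idh2 (1.00 ± 0.24, adjusted p = 0.0288) were the genes of these lists that were called, all higher.

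Tfrc, the transferrin receptor, whose messenger RNA is known to be stabilised when iron is scarce, was read as a check of the treatments. In hepatocytes it had 352 to 503 CPM with DFO and 106 to 126 CPM in controls (log2 fold change 1.97 ± 0.08, adjusted p = 1.13e-12). In stellate cell cultures Tfrc had 137, 169, 92.2, 127 and 15.4 CPM in the libraries labelled iron 1 to 5 and 74.8, 72.5, 107, 69.2 and 68.7 CPM in control 1 to 5. Over the 7 libraries it was therefore higher with iron (log2 fold change 1.01 ± 0.09, adjusted p = 2.14e-06), the opposite of the known direction for added iron, and over all 10 it was not called (0.46 ± 0.46, adjusted p = 0.536). The other 5 genes checked did not move as 1 group over the 7 libraries: Ankrd37 (2.59), Pdk1 (0.64) and Egln3 (0.51) were higher, Bnip3 was lower (-0.31, adjusted p = 0.0298) and Ndrg1 was not called (-0.31, adjusted p = 0.054). Ankrd37 was not tested with all 10 libraries, and the other 4 were then not called (adjusted p 0.0867 to 0.633). The stellate cell results above are accordingly differences between the libraries labelled iron and those labelled control.

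Set side by side, the comparisons called 5 of 32 members in both, with the 7 stellate libraries (15.6%), where 25.9% of the 14313 genes tested in both were called in both. Kdm2a and Alkbh5 were higher with DFO and lower with iron (6.25%, against 7.17% of all genes). Alkbh1 was lower with DFO and higher with iron (3.12%, against 7.65%), and Fto and Hspbap1 were lower in both (6.25%, against 6.23%). Phf8 and Kdm5a were lower with iron and not called with DFO (6.25%, against 7.05%). No member was called higher in both, where 4.80% of all genes were. The cell types differ between these comparisons and were normalised apart, so treatment and cell type cannot be told apart as sources of a difference.

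Levels of the genes were compared per kilobase. In DFO hepatocytes the highest means were 31.9 FPKM for Alkbh5, 27.3 for Kdm3a, 22.6 for Jmjd6 and 19.4 for Kdm5c. In control hepatocytes they were 17.0 FPKM for Kdm5c, 15.5 for Kdm4a, 14.3 for Alkbh5 and 13.1 for Alkbh2, and Kdm3a stood at 5.92. The lowest were Tet2, Kdm4d and Tet1, at 0.775, 0.0817 and 0.00667 FPKM with DFO and 0.507, 0.108 and 0.00833 FPKM in controls. In stellate cultures, over the 7 libraries, the highest were Alkbh5 (15.0 FPKM with iron and 17.2 FPKM in controls), Kdm4a (15.0 FPKM with iron and 14.4 FPKM in controls), Kdm5c (12.7 FPKM with iron and 14.0 FPKM in controls) and Jmjd6 (14.4 FPKM with iron and 12.5 FPKM in controls). Kdm4a, Kdm5c and Alkbh5 were thus among the most abundant members in both cell types.

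**Figure D5:**
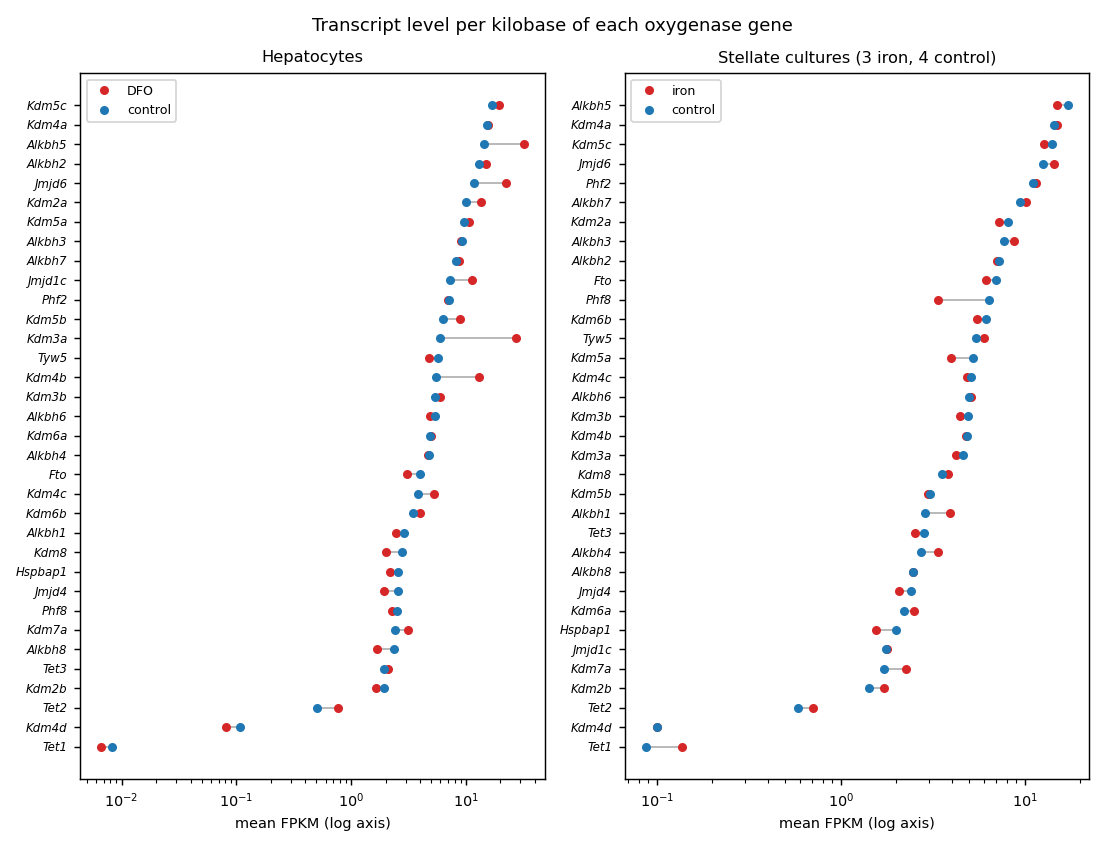
Mean FPKM (horizontal log axis) of each oxygenase gene (rows, ordered by the control level) in DFO and control hepatocytes on the left and in iron and control stellate cultures on the right (3 iron and 4 control libraries). Among genes above 1 FPKM, the longest lines between the groups belong to Kdm3a, Kdm4b and Alkbh5 in hepatocytes and to Phf8 in stellate cultures.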

How the data were processed

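Gene-level RNA-seq of cultured mouse liver cells was used as deposited. The deposited read counts per Ensembl gene are whole numbers, and the authors' FPKM values, where above 1, lie within 0.494% of the count divided by exonic length and library total, tested on both tables. The submitters' processing notes name cutadapt 1.9.1 and HISAT2 2.0.1 with the build mm10. Which program counted reads, with which annotation and strand setting, is not given in the sources used here. Per the labels' protocols, a small RNA kit was used and each group had 4 biological replicates, but 6 and 5 libraries per group are listed. Coordinates of all 34 members equal those of GENCODE M21, which also gave exon overlaps.

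Each cell type was fitted alone with edgeR 4.0.16 (R 4.3.3): TMM normalisation, filterByExpr, quasi-likelihood test and Benjamini-Hochberg adjustment over all genes tested, with a threshold of 0.05. Standard errors are those implied by the F value. Levels are TMM-normalised CPM of all libraries of a cell type, with SD over libraries. The 7-library fit leaves out stellate libraries control 3, iron 3 and iron 5. These 3 stand apart in these same data, and errors are smaller without them (Phf8 SE 0.39 with 10 libraries and 0.11 with 7). The p-values over the 7 libraries may therefore be too small. Replicate libraries differed by more than sampling noise (chi-square over degrees of freedom at least 3.23). The procedure was tested on simulated data. The outcome of that test is not reported here. Alternatives were DESeq2 1.42.0, limma 3.58.1 on log2(FPKM + 1) or log2(FPKM + 0.1) of genes reaching 0.5 FPKM, voom with quality weights, no filter, the replicate number as a block and each library left out. Library mean exonic length as a covariate, and the alternatives within the 7 libraries, were added after the data were seen. Promoters come from RefSeq (GRCm38.p6).

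Members and gene lists were chosen with earlier results of these data known. Every called member is named, values by library are given for those the results turn on, and genes of other lists are given by counts with the 4 of smallest p, all that were called where these were 7 or fewer, and others where the list's name needs them.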

Additional observations from a re-analysis of the deposited data

Results flagged for a closer look

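In groups of 5 or 6 libraries, a member was singled out where its highest or lowest library lay far from the nearest other library (Dixon's 95% criterion). Chance singles out about 1 in 20 groups, and each of the 4 groups was examined for 34 members. Of the 26 cases, 18 were in stellate library control 3, which stands apart. Control 3 was the high extreme, in CPM, for Kdm3a (57.1), Kdm3b (132), Jmjd1c (101), Kdm2a (204), Phf2 (99.8), Phf8 (102), Kdm7a (35.6), Kdm5a (139), Kdm5b (88.7), Kdm5c (192), Kdm6a (35.5), Kdm6b (129), Tet2 (31.6), Tet3 (152) and Alkbh5 (133). It was the low extreme for Alkbh2 (3.19), Alkbh6 (8.26) and Alkbh7 (1.39), genes of 1.11, 3.12 and 1.03 exonic kb.

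Stellate library iron 5 was the high extreme for Hspbap1 (48.6 CPM) and the low extreme for Jmjd4 (1.63), Fto (49.4) and Tyw5, which had 0 counts. Control 5 was high for Alkbh8 (23.5 CPM). In hepatocytes, DFO 6 was low for Kdm5c (118 CPM) and high for Hspbap1 (24.7), and DFO 3 was high for Tet1 (0.336). Apart from Tet1, too low to test, the hepatocyte cases concern members called with DFO, and both calls were kept without DFO 6. Across the hepatocyte groups, such cases were no more frequent than the chance rate given above. They are therefore not read as traits of these members. The share of all genes singled out by the same criterion was not computed for any group.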

How the results depend on the processing

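In hepatocytes the counts of 12 higher and 8 lower members stayed within 10 to 17 and 6 to 9 under every alternative run, and no called member reversed. Over all genes tested, these runs called 3265 to 5000 higher and 4311 to 5309 lower. Leaving out 1 library gave 11 to 15 higher and 6 to 8 lower, and adding library mean exonic length gave 17 and 8. Same-numbered libraries did not deviate together (correlations of -0.245 to -0.003 in hepatocytes and -0.32 to 0.12 in stellate cells). These correlations include the libraries that stand apart, so they cannot tell whether equal numbers share an animal or a preparation. With the replicate block, hepatocytes had 11 higher and 6 lower members, the calls of Kdm2b, Alkbh1 and Alkbh2 being lost, and the 10 stellate libraries had 0 higher and 0 lower, with Phf8 at an adjusted p of 0.136. For all 10 stellate libraries the count of higher members, 0, became 3 with voom quality weights (Kdm7a, Tet1 and Alkbh1), and 1 without control 3, iron 3 and iron 5, with or without the block. The count of lower members, 1, became 4 with DESeq2, 5 with voom quality weights and 0 with the length covariate (Phf8 -0.87, adjusted p = 0.0632). It became 6 without those 3 libraries, 5 without them and with the block, and 0 to 1 without 1 library. Of all 15502 genes tested, DESeq2 called 1615 higher and 1280 lower, and voom quality weights 3055 and 3264. The length covariate called 512 higher and 484 lower. Within the 7 libraries, leaving out 1 more gave 1 to 6 higher and 4 to 8 lower members. Over all genes, these fits called 2514 to 3299 higher and 2555 to 3327 lower. The block ended the Kdm2a call (adjusted p = 0.0909), and DESeq2 on the 7 libraries changed no member's call. The causes of these differences between runs were not tested. With all libraries, Kdm4d and, in hepatocytes, Tet1 did not pass the filter on low counts. In hepatocytes, edgeR without that filter did not call Kdm4d (log2 fold change -0.35, adjusted p = 0.493) or Tet1 (-0.18, adjusted p = 0.829). At these counts, changes of these genes could not be judged.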
